A study of Homo sapiens with 6 samples.

Results

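The regions described here are the stretches of the genome where CTCF was called in clone D3 of HCT-116, an established human colon cancer cell line, and in neither clone E4 nor wild-type cells (WT). They were found by merging the peak lists of the 3 CTCF libraries wherever peaks overlapped by 1 bp or more, on chromosomes 1 to 22, and keeping the merged regions that held a D3 peak and no E4 and no WT peak. The members were thus chosen by the presence of a D3 peak call and the absence of E4 and WT calls. This left 15153 of 58351 merged regions, or 26.0%, each made of a single D3 peak. A further 561 such regions lay on the X chromosome and 3 on the Y chromosome, and these were not used.

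The series mapped CTCF by chromatin immunoprecipitation and sequencing in untreated cells. D3 and E4 are clones that the labels describe as carrying a CTCF mutation, without saying where it lies or whether the CTCF protein itself is altered, and the series' title speaks of a distal CTCF binding site and the gating of MYC. Each population had 1 CTCF library, and 3 libraries without antibody were not analysed here. Each clone is a single clonal line, so a property of the clone, its culture and its library cannot be told apart, and no difference below has a replicate check or a p-value.

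CTCF is a DNA-binding protein with an array of zinc fingers that reads a long motif. It stops cohesin as cohesin extrudes chromatin loops, and sites bound by it mark many boundaries of chromatin domains and insulators between enhancers and promoters. Many of its strong sites are occupied in most cell types, while weak sites are more often occupied in some cells only.

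The D3 list was the longest. On chromosomes 1 to 22 it held 56103 peaks, against 38209 for E4 and 37735 for WT. Read numbers were not in the files used here, so the depth behind each list is unknown, and more reads or a better immunoprecipitation lengthen a list just as more binding does. Regions private to the other libraries were far fewer, with 838 called in E4 only and 1411 called in WT only. As a share of its own list, 27.0% of the D3 peaks were private (exact 95% interval 26.6 to 27.4), against 2.19% for E4 (2.05 to 2.35) and 3.74% for WT (3.55 to 3.94). Intervals here and below are Clopper-Pearson intervals that cover counting error only. When each list was held to its 37735 strongest peaks by the authors' −log10 q, 2759 regions were called in D3 only, 2999 in E4 only and 3163 in WT only. The D3 number is 6.05% of all merged regions at that length. Of the 15153 regions, 2687 (17.7%) were still called in D3 only, and 72 others joined them because their E4 or WT peak was no longer in the list. With peaks ranked by fold instead, 3088 regions (6.72%) were called in D3 only, 3002 in E4 only and 3221 in WT only, so which library had the fewest depended on the ranking. When instead peaks under a −log10 q of 5 were dropped from each list, which leaves the lists unequal again at 37983 (D3), 25413 (E4) and 20193 (WT) peaks, the number was 11523 (29.9%). Of these, 2806 belong to the 15153 regions, 18.5% of them, and the other 8717 became private to D3 because their E4 or WT peak was dropped.

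The regions called in D3 only were weak within the D3 list by the authors' own measures. These values describe peaks within the D3 list, and since weak peaks are the ones that other lists miss, they are given as a description with no test. The −log10 q of these peaks had quartiles of 2.08 and 4.39 around a median of 2.97, and ran from 1.02 to 24.4. Their fold enrichment over the background that the peak caller estimated had a median of 3.85 and ran from 2.14 to 12.1. D3 peaks in regions called in all 3 lists had a median −log10 q of 16.5 and a median fold of 8.97. The peaks that D3 shared with 1 other library lay between these, with a median −log10 q of 5.31 where E4 also had a peak and 5.63 where WT did. The median private peak stood at percentile 17.1 of the D3 list. Private peaks of the other libraries stood lower in their own lists, at percentile 6.11 for E4 and 5.88 for WT, so a low rank was common to the 3 private classes. In all, 3365 of the 15153 (22.2%) had a −log10 q under 2, 8982 (59.3%) lay from 2 to 5, 2559 (16.9%) from 5 to 10, and 247 (1.63%) at 10 or more.

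The private share fell with strength. Regions with a D3 peak, 55975 in number, were cut into deciles of the D3 −log10 q. In the weakest decile 83.2% (82.2 to 84.2) were called in D3 only, and in the next 71.7%. The share passed through 55.8%, 35.6% and 17.2% in the middle deciles and was 1.70% in decile 7. The strongest 3 deciles held 13 regions called in D3 only, and the strongest decile held 0 of 5598, with an upper limit of 0.0659%. The weakest 4 deciles held 13785 (91.0%) of all regions called in D3 only. Of the 37904 D3 regions with a −log10 q of 5 or more, 2806 (7.40%) were called in D3 only. Of the 25677 with 10 or more, 247 (0.962%) were.

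**Figure D1:**
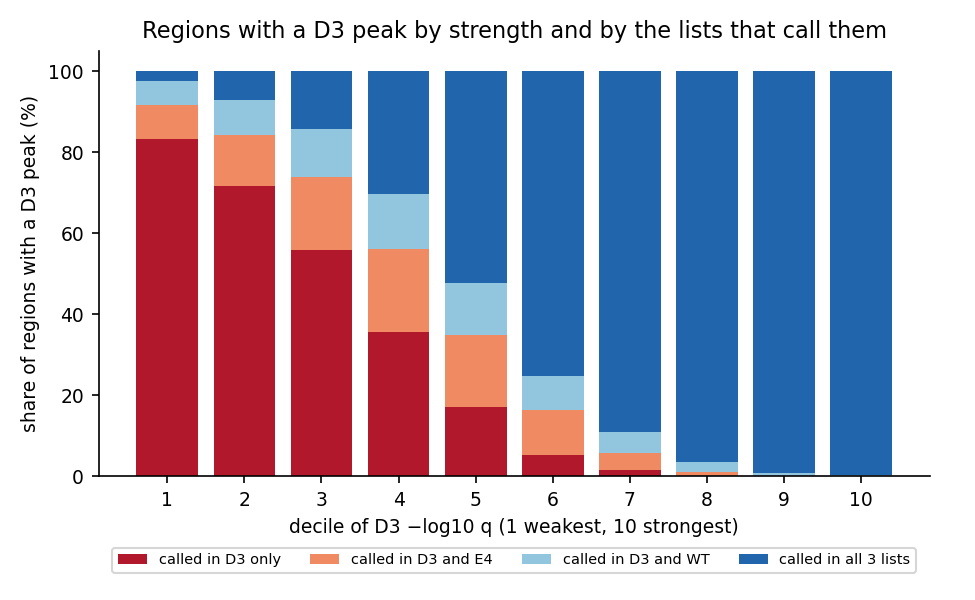
Share of regions with a D3 peak (vertical axis, %) that each combination of lists called, by decile of the D3 −log10 q (horizontal axis, 1 weakest). The part called in D3 only falls from 83.2% in decile 1 to 0 in decile 10, while the part called in all 3 lists rises from 2.36% to 99.7%.

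The 10 strongest regions mark the upper end of the group. First was chr14:80668822-80670350 (hg19, 1529 bp), where the D3 peak reached 12.1-fold enrichment with −log10 q 24.4, at percentile 83.9 of its list. Its nearest E4 peak was 9.47 kb away and its nearest WT peak 9.42 kb. Among regions with a D3 peak, of which there were 55975, 9020 were at least as strong. Second was chr8:85933944-85934809, whose −log10 q was 21.9, and the third was chr12:21466022-21467023, with 20.7 and a fold of 9.64. The next were chr4:189312297-189313095, with a −log10 q of 18.0, and chr9:98788262-98788845, with the same rounded value. Then came chr1:146250767-146251033, a narrow region of 267 bp with a fold of 10.6, which lay 144 kb from any region called in all 3 lists. At chr18:7221353-7221869 the nearest WT peak was 230 kb away and the nearest E4 peak 842 kb away, so this region stood far from any call in those libraries. The last of the 10 were chr7:21340198-21340750, chr1:63932280-63932855 and chr12:32084686-32085951, whose −log10 q lay between 16.6 and 17.4. All 10 exceeded the lowest −log10 q that D3 peaks had at equal list length, 5.07. As they were picked as the strongest, this was fixed by the choice and is no check on them. No annotation of hg19 was used here, so these positions carry no exon, intron or UTR assignment, and no hg19 sequence was read.

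The regions were narrow. Their width had a median of 443 bp, with quartiles of 327 and 621 bp and a range from 245 to 3770 bp. Under 500 bp lay 9019 of them (59.5%), from 500 to 1000 bp 5391 (35.6%), and 743 (4.90%) were wider. Together they covered 7.78 Mb, or 14.4% of the bases in the D3 list, although they made up 27.0% of its peaks. Regions called in E4 only and in WT only were narrower still, with medians of 357.5 and 340 bp. Merged regions called in all 3 lists had a median width of 1199 bp, which includes what the E4 and WT peaks add. Within the group, width and −log10 q went together only loosely, with a rank correlation of 0.33 over 15153 regions of 1 library.

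The difference in width was also present among D3 peaks of equal strength. There, D3 peaks called in D3 only were narrower than D3 peaks called in all 3 lists in each of the first 8 deciles. In decile 2 the medians were 399 and 692 bp, in decile 4 they were 542.5 and 834 bp, and in decile 6 they were 685.5 and 985 bp. Over deciles 1 to 7 the ratio of the medians lay between 1.37 and 1.73. From decile 2 to decile 7 the median of the D3-only peaks lay under the lower quartile of the shared peaks. Decile 8, with 11 D3-only peaks, gave 584 and 1144 bp, and decile 9, with 2, gave 1197.5 and 1232 bp. D3 peaks shared with E4 alone or WT alone lay between, at 601 and 579 bp in decile 3 against 453 bp for D3 only and 733 bp for all 3. Fold did not differ in this way, since fold and −log10 q nearly fix each other within the list: in decile 4 the median fold was 5.06 for D3 only and 4.98 for all 3 lists. A wider peak offers more bases for an E4 or WT peak to overlap, so width is tied to the rule, and how much of the difference this makes was not tested.

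**Figure D2:**
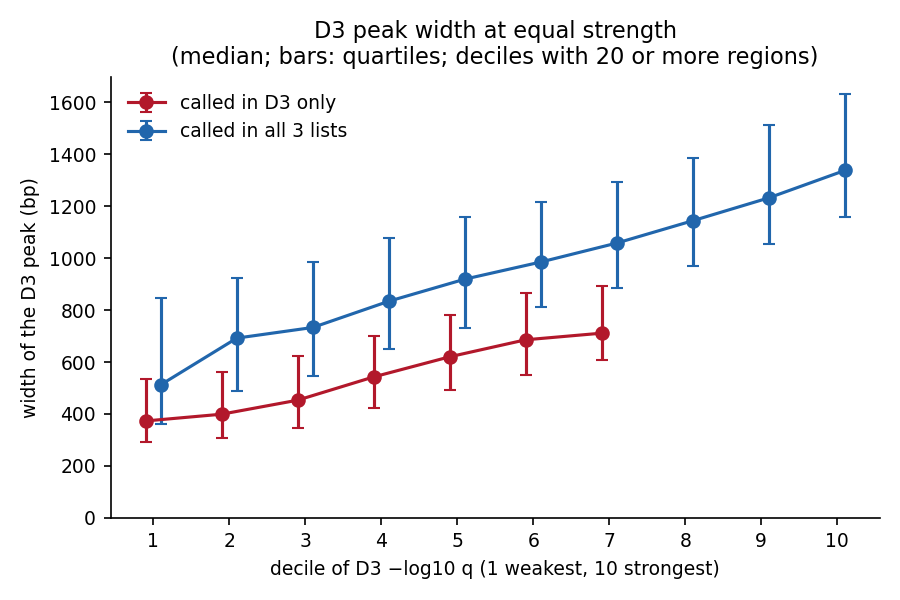
Median width of the D3 peak (vertical axis, bp) by decile of D3 −log10 q (horizontal axis) for regions called in D3 only and in all 3 lists, with quartiles as bars. Deciles with fewer than 20 regions are left out. The D3-only medians run from 373 bp in decile 1 to 711 bp in decile 7, under those of shared peaks (512.5 to 1058 bp) in each of these deciles.

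The 3 widest regions were of different strength. The widest, chr22:18766210-18769979, spanned 3770 bp at 3.82-fold enrichment and stood at percentile 15.3 of the D3 list. The next, chr2:239147453-239150658, spanned 3206 bp at 3.94-fold. The third, chr11:67465254-67467915, spanned 2662 bp and was stronger, at 7.18-fold and −log10 q 11.3. In all, 26 regions were wider than 2000 bp, with a median −log10 q of 3.78.

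Few regions sat at the limit of the rule. An E4 or WT peak lay within 1 kb of 117 of them (0.772%), within 100 bp of 35, and 2 touched one without sharing a base. Those just inside were chr4:37382567-37382941, which touched an E4 peak and had a −log10 q of 1.15, and chr14:23997510-23998197, which touched a WT peak and had 5.58. Also just inside was chr17:1655737-1656199, 1 bp from a WT peak. Just outside, chr13:109864922-109865513 shared 1 bp with an E4 peak, chr1:27834606-27835462 shared 5 bp with a WT peak, and chr7:26530672-26531272 shared 8 bp with an E4 peak. Their D3 −log10 q lay between 2.67 and 2.89, close to the median of the regions kept. Merging peaks up to 1 kb apart changed the count from 15153 to 15020.

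The next question was where the regions lay relative to CTCF regions called in all 3 lists, of which there were 31692. The median distance was 24.9 kb, edge to edge, with quartiles of 9.11 and 61.7 kb. Within 1 kb of a shared region lay 39 (0.257%), within 5 kb 2157 (14.2%), within 10 kb 4057 (26.8%, 26.1 to 27.5), and within 100 kb 12855 (84.8%). At the far end, 61 regions were over 1 Mb from any shared region.

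This spacing was close to that of the regions D3 shared with 1 other library. Of the regions called in D3 and E4, 26.8% (25.6 to 28.0) lay within 10 kb of a region called in all 3 lists, with a median distance of 25.8 kb. Of those called in D3 and WT, 26.9% (25.5 to 28.3) did, with a median of 24.2 kb. The 3 shares differed by less than their counting intervals. Regions called in all 3 lists were nearer to their own kind, with 34.2% (33.7 to 34.7) within 10 kb of another and a median of 17.7 kb. Regions called in WT only were also nearer, with 31.3% (28.8 to 33.7) within 10 kb, and the 838 called in E4 only had 27.0%, with an interval that also held the 26.8% of the D3-only regions. Farther out the E4-only regions differed, with a median distance of 31.1 kb and 63.6% (60.2 to 66.9) within 50 kb, against 24.9 kb and 69.7% (69.0 to 70.4) for D3 only. These shares are descriptions of 1 set of lists, since classes were made by the same overlap rule.

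**Figure D3:**
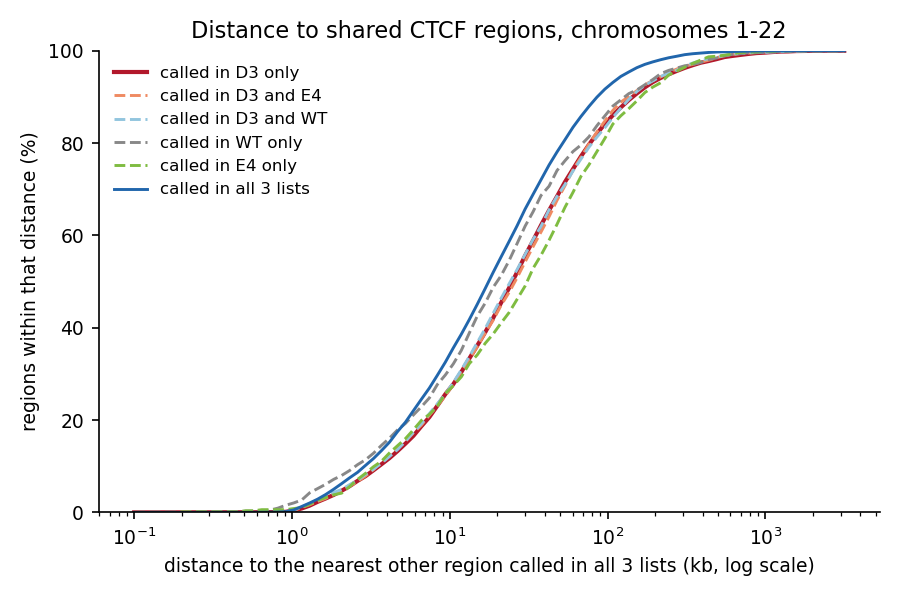
Cumulative share of regions (vertical axis, %) within a given distance of the nearest other region called in all 3 lists (horizontal axis, kb, log scale), for each class. The curve for D3 only runs with those of D3 and E4 and of D3 and WT, at 26.8%, 26.8% and 26.9% within 10 kb, below the curve of the regions called in all 3 lists, at 34.2%.

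Among the regions called in D3 only, stronger ones lay farther from shared regions. The median distance was 20.9 kb with a −log10 q under 2, 25.5 kb from 2 to 5, 27.8 kb from 5 to 10, and 36.4 kb at 10 or more. The share within 10 kb fell along the same bands, from 30.6% (29.1 to 32.2) to 26.2% (25.3 to 27.1), 24.3% (22.6 to 26.0) and 21.9% (16.9 to 27.5). The first and last of these intervals do not overlap. Region by region the relation was weak, with a rank correlation of 0.08 between distance and −log10 q. Distance also rose with strength in the regions that D3 shared with 1 other library, though not throughout for either. For D3 and WT the median went from 19.1 kb in decile 1 of D3 −log10 q to 29.4 kb in decile 7. Between these it fell from 28.3 kb in decile 5 to 26.9 kb in decile 6. For D3 and E4 it went from 22.7 kb in decile 1 to 28.8 kb in decile 5, and was 21.2 kb in decile 7. At equal strength the D3-only regions were farther from shared regions than shared regions were from each other in deciles 1 to 8. Decile 8 held only 11 D3-only regions. In decile 3 the medians were 26.8 and 20.7 kb, and in decile 6 they were 35.8 and 21.1 kb. A greater distance was not particular to D3-only regions. Regions called in D3 and E4 were also farther in deciles 1 to 8, with a median of 28.2 kb in decile 6. Those called in D3 and WT were farther in deciles 2 and 4 to 8, with 26.9 kb in decile 6, but not in deciles 1 and 3.

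The region farthest from any shared one was chr14:85662290-85662643, 2.48 Mb away, with fold 4.97. It was followed by chr16:61182757-61183160, 2.14 Mb away, and chr14:86322789-86323149 at 2.04 Mb.

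Most regions called in D3 only stood alone or in short rows. They made up 26.0% of merged regions, which by itself makes long rows few. What a random order would give was not computed, so the counts are a description. Of the 15153, 7929 (52.3%) had a region of another class on both sides, 5924 (39.1%) had 1 neighbour that was also D3 only, and 1300 (8.58%) had 2. Runs of 5 or more such regions in a row, with no other class between, numbered 90 and held 508 regions (3.35%). The longest had 9. One of these lay at chr5:39986585-40388761, where 9 regions over 402 kb had a −log10 q from 2.92 to 7.47. Another, chr14:97768302-99327491, spread 9 regions over 1.56 Mb and included one with a −log10 q of 14.6. The last run of 9, chr7:56445732-62469305, spans the centromere of chromosome 7, and 4928 kb of its 6.02 Mb is a single gap with no region in any list. The median distance from a D3-only region to the next was 51.9 kb.

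The regions lay on every autosome. Their number ran from 172 on chromosome 21 to 1470 on chromosome 1. Per Mb, up to the last region of the chromosome, it ran from 3.57 on chromosomes 13 and 21 to 7.54 on chromosome 19, a gene-dense chromosome. The shared regions were sparse and dense on the same chromosomes, from 5.82 per Mb on chromosome 13 to 21.3 on chromosome 19. Over the 22 autosomes the 2 densities had a rank correlation of 0.92, where the points share the same 3 libraries and the same sequence composition. The shared regions varied more, so that chromosome 13 had 0.61 D3-only regions for each shared one, and chromosome 17 had 0.33.

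As a share of all merged regions, chromosome 4 was highest, with 29.7% (28.1 to 31.3), and chromosome 17 lowest, with 19.7% (18.3 to 21.3). The highest autosome was chromosome 21 at equal list length by either ranking and with a limit of 5 on D3 alone, and chromosome 13 with that limit on every list. Chromosomes 2, 3, 4, 5 and 13 had intervals above the autosomal 26.0%, and chromosomes 17, 19, 20 and 22 had intervals below it. The strength of the D3 peaks differed between chromosomes too. When the share within regions holding a D3 peak was set beside the value that the deciles of those peaks would give, 21 of 22 autosomes had it inside their interval. On chromosome 19 the values were 22.9% (21.0 to 24.8) and 22.6%, and on chromosome 4 they were 30.6% (29.0 to 32.3) and 30.2%. The exception was chromosome 17, with 21.4% (19.8 to 23.0) observed and 23.7% from strength. Chromosome 17 also had 181 regions called in WT only, 6.41% of its regions, a share that was 2.42% over all autosomes. Chromosome 8, with 192 (6.57%) called in WT only, had a D3-only share of 27.3% beside 27.4% from strength. Chromosomes 10 (131, 4.48%) and 16 (84, 4.05%) also had WT-only shares above the autosomal one, with D3-only shares of 27.4% and 26.6% beside 27.1% and 25.7% from strength.

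**Figure D4:**
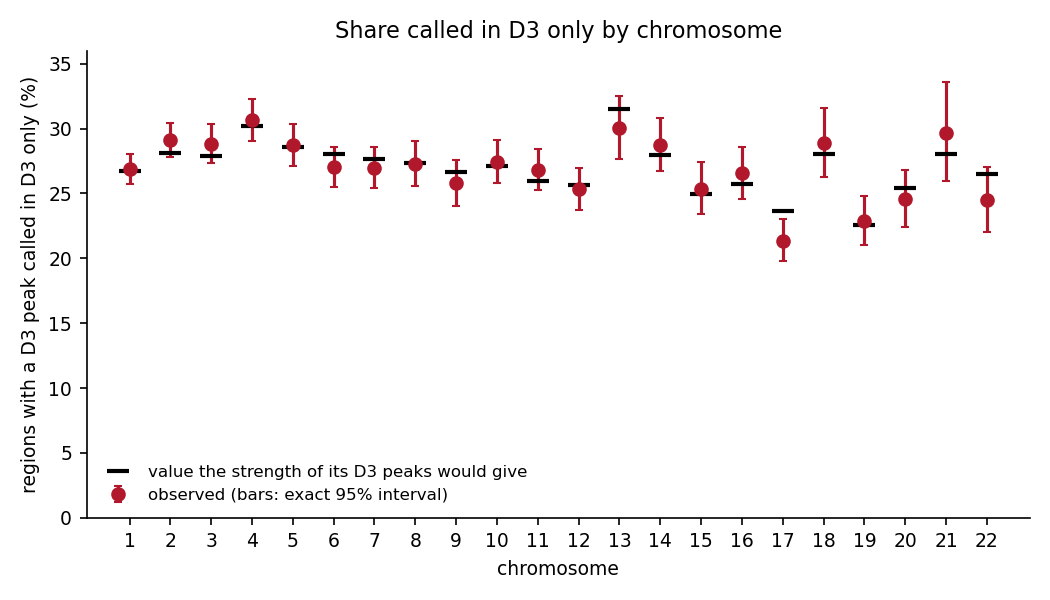
Share of regions with a D3 peak that were called in D3 only (vertical axis, %) for each autosome (horizontal axis), with exact 95% intervals, and the value that the strength deciles of that chromosome's D3 peaks would give (dashes). The dash lies inside the interval on 21 of 22 autosomes, and above it on chromosome 17 (23.7% against 21.4%).

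Along the chromosomes the regions were spread widely. All 567 bins of 5 Mb with any merged region held at least 1 region called in D3 only. The 542 bins with 30 or more merged regions held 15003 of the 15153. The number per bin had a median of 26 and a range from 3 to 74. The share had a median of 26.4%, with percentiles 10 and 90 at 19.6% and 35.0%. No bin had an interval wholly above 1.5 times the autosomal share (39.0%), and none had one wholly under that share divided by 1.5 (17.3%). With the lower of the factors tried these counts were 5 and 3. The interval lay above 26.0% itself in 39 bins and below it in 38.

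Bins with a high share were poor in shared CTCF regions, and bins with a low share were rich in them. The 39 bins above had a median of 34 regions called in all 3 lists, the 38 below a median of 109, and the other bins 52. Over the 542 bins the share had a rank correlation of −0.51 with the number of shared regions, which also enters the denominator of the share. The number of D3-only regions rose with the number of shared regions, with a rank correlation of 0.73. It fell to 0.31 at equal list length, where the D3-only regions are fewer. Of the 38 bins below, 8 lay on chromosome 17, which had 17 bins, and 4 each on chromosomes 1 and 19. Of the 39 above, 7 lay on chromosome 5, 5 on chromosome 2 and none on chromosomes 15 to 20. Longer chromosomes have more bins, and apart from chromosome 17 these counts are not set against the number of bins tested. They therefore do not tell a high or low rate of such bins from chromosome size.

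**Figure D5:**
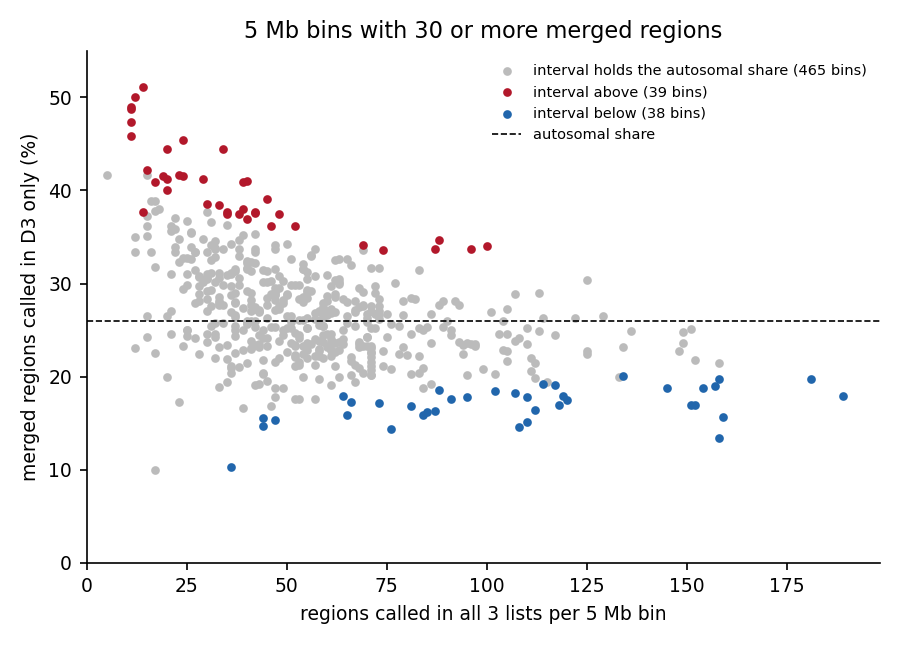
Share of merged regions called in D3 only (vertical axis, %) against the number of regions called in all 3 lists (horizontal axis) in 542 bins of 5 Mb. The 39 bins whose interval lies above the autosomal 26.0% sit mostly at low numbers of shared regions (median 34), and the 38 below it mostly at high numbers (median 109).

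Among the 542 bins with 30 or more merged regions, the 5 of highest share held 32 to 47 each. The first, chromosome 6 from 60 to 65 Mb, next to the centromere, had 24 of 47 called in D3 only, 51.1% (36.1 to 65.9). Chromosome 5 followed with 16 of 32 from 160 to 165 Mb and 23 of 47 from 25 to 30 Mb. Chromosome 4 from 30 to 35 Mb had 20 of 41, and chromosome 14 from 40 to 45 Mb had 18 of 38. The 3 of lowest share were chromosome 20 from 25 to 30 Mb (3 of 30), chromosome 8 from 145 to 150 Mb (6 of 58) and chromosome 17 from 70 to 75 Mb (36 of 268, 13.4%, 9.59 to 18.1). Regions called in WT only made up 12.1% of that chromosome 8 bin and 12.3% of that chromosome 17 bin. The outermost 5 Mb at each end of the covered part of the chromosomes had 25.9% (24.9 to 27.0), and the rest 26.0% (25.6 to 26.4), a difference smaller than the intervals.

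A measure that the rule did not use is the rank of the shared regions, taken by −log10 q among those regions in each library. In the fifth of bins with the lowest D3-only share, the median rank of shared regions in D3 less that in WT was −0.68 percentile points (quartiles over bins −1.84 and 0.64). In the fifth with the highest share it was 0.90 points (−0.83 and 3.27). The quartile ranges overlap, and over 542 bins the rank correlation was 0.21. It was 0.11 at equal list length by −log10 q and 0.11 with a limit of 5 on D3 alone, and it was 0.20 for D3 less E4 with whole lists. Single bins reached a larger difference between D3 and WT, of either sign. On chromosome 8 it was −17.0 points from 130 to 135 Mb and −16.6 from 145 to 150 Mb. On chromosome 11 it was 13.1 points from 125 to 130 Mb and 13.1 from 130 to 135 Mb. Chromosome 6 from 60 to 65 Mb, the bin of highest share among the 542, had −11.0 points, against the direction of the correlation. Shared regions within 5 kb of a D3-only region had a median difference of 0.53 points for D3 less WT, with quartiles of −9.48 and 10.7. From 5 to 20 kb away the median was −0.20, from 20 to 100 kb it was −0.10, and over 100 kb it was 0.08. Against E4 the median for those within 5 kb was −0.34, of the opposite sign.

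Named genes were looked at last, in 70 windows of hg19 genes and gene clusters with 10 kb on either side. The 6 lists follow an earlier description of these data, so they are no independent choice. They held 278 merged regions, of which 66 (23.7%, 18.9 to 29.2) were called in D3 only, beside 26.0% over the autosomes. These 66 lay in 37 windows and had a median −log10 q of 2.47. By list the shares were 1 of 16 for the 8q24 genes, 8 of 45 for WNT targets, 26 of 100 for insulator and cluster loci, 7 of 31 for CTCF and cohesin genes, 10 of 35 for colon epithelial genes and 14 of 51 for colorectal cancer genes. The interval of each of the 6 held 26.0%.

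Around MYC, the oncogene that the study concerns, no window from PCAT1 to PVT1 held a region called in D3 only. The windows of PCAT1 and PRNCR1 held no merged region of any class, and the others held 1 to 5 each. For the whole 8q24 list, with 1 of 16, the interval of 0.158% to 30.2% held the 26.0% over the autosomes. No interval was computed for the windows from PCAT1 to PVT1 alone, so their lack of such regions is a description. The single D3-only region of the 8q24 list was at FAM84B, chr8:127570502-127571003, at 3.30-fold and −log10 q 1.90. Its nearest WT peak was 7.68 kb away.

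At WNT targets the 8 windows each held 1 such region, all of them weak. The strongest was at NOTUM, which encodes a secreted WNT inhibitor, with a −log10 q of 4.33. ASCL2, an intestinal stem cell transcription factor, had as its single region one called in D3 only, with a −log10 q of 3.79. LGR5, the receptor that marks intestinal stem cells, had a 1339 bp region with a −log10 q of 2.56 beside 1 shared region. The others, at ZNRF3, EPHB2, NKD1, LEF1 and CD44, had a −log10 q from 1.31 to 2.74. AXIN2 and RNF43, feedback inhibitors of the pathway, had none.

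The insulator and cluster loci held the strongest of these regions. RB1, a tumour suppressor gene that restrains the cell cycle, had its single region in D3 only, chr13:48908556-48909101, at 6.98-fold and −log10 q 9.03. The cluster of protocadherin genes, cell adhesion genes whose alternative promoters carry CTCF sites, held 12 regions called in D3 only among 32. Their −log10 q ran from 1.13 to 8.32, the strongest being chr5:140602553-140603212, and 9 further regions of the cluster were called in D3 and WT but not in E4. Over all merged regions, those called in D3 only made up 26.0% and those called in D3 and WT 6.69%. No interval was computed for this cluster. APP, the amyloid precursor gene, had 3 of 7, led by chr21:27404554-27405030 with a −log10 q of 7.98 and 136 kb from any E4 or WT peak. Of the HOX clusters, which encode developmental transcription factors, HOXC had 3 of 11, HOXA 2 of 13, HOXB 1 of 12 and HOXD 0 of 6. The strongest of these were at HOXA, chr7:27183177-27184023, with a −log10 q of 7.47, and HOXC, chr12:54430465-54431142, with 7.07.

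Genes of the CTCF and cohesin machinery held 7 of 31, a share near that of all autosomal regions. STAG1, a cohesin subunit, had a region with a −log10 q of 5.45, and NIPBL, which loads cohesin, had 3 of 8 regions in D3 only, all between 2.33 and 2.57. RAD21, the cohesin subunit cut at cell division, had 1 of 3, and its other 2 were called in D3 and WT. CTCF itself had 1 of 4, with a −log10 q of 2.53.

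Among colon epithelial genes, EPCAM, a surface adhesion molecule of epithelia, had a region with a −log10 q of 7.09, and CDH1, which encodes E-cadherin, one with 6.22. HNF4A, a transcription factor of gut and liver epithelium, had 3 of 6, from 2.04 to 6.28. One of these, chr20:43035331-43035744, lay 0.015 kb from a WT peak, at the limit of the rule. CDX1, a homeobox factor of the intestine, had 2 of 4, both under 2.7, and CDX2 had none. Among colorectal cancer genes, TCF7L2, the transcription factor through which WNT signals act in the colon, held 6 of 10 regions in D3 only and the other 4 in all 3 lists. The 6 had a −log10 q from 1.30 to 4.94, so none would pass a limit of 5. FBXW7, a subunit of a ubiquitin ligase that acts on MYC, and SMAD3, a transducer of TGF-beta signals, had 2 each. APC, the scaffold that degrades beta-catenin, had 1 with a −log10 q of 1.56.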

How the data were processed

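CTCF libraries of D3, E4 and WT were used, 1 per population. Per the submitters' processing notes, build hg19 was used with MACS2 2.2.7.1, bedtools 2.29.2, Picard 2.23.1 and CASAVA 1.8.2, whose roles, like the aligner, are not given in the sources used here. As deposited, there is 1 broad peak list per library, so peaks were called per sample. The fold enrichment (a ratio) and the −log10 p and −log10 q per peak are the authors' deposited values, used only within their own list. The deposited score column was not used. The files give no read numbers.

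Lists were merged, classified and measured in Python 3.11.15 with pandas 2.3.3 and scipy 1.17.1, and the steps were tested on simulated peaks. Members and gene lists were chosen with earlier results of these data known. Named regions were the 10 strongest, the 3 widest, the 3 most remote, the 3 longest runs, the 5 highest and 3 lowest bins, those at the limit of the rule, and gene windows holding a member. Window positions come from general knowledge of hg19. In a RefSeq table of GRCh38, used for names, 65 of 65 single genes lay on the same chromosome and 60 had a length within 10% or 3 kb. Alternatives changed strength, list length, merging, coverage, chromosomes and bins.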

Additional observations from a re-analysis of the deposited data

How the results depend on the processing

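With 1 library per population no replicate could be left out, and the replicate number is 1 throughout. No paired analysis was possible because 1 shared number makes no block. Of 91 alternatives, 40 stayed inside the counting interval (for a correlation, within 0.1, and for a count, within 1.5 times), 51 moved and 0 reversed. Reversed means a change of sign, which only the correlations could show, so it says nothing about counts, shares, widths or distances. Leaving out chromosomes 8, 10, 16 and 17, the E4 list or the WT list was added after seeing the data, and without the E4 or the WT list 20422 and 19072 regions were private to D3.
With every list held to a −log10 q of at least 5, 29.9% of merged regions were private to D3, with a median width of 759 bp and a median distance to shared regions of 48.0 kb. There 16.4% lay within 10 kb, the autosomes spanned 16.6 percentage points, 3 bins were low, the correlations were 0.56 (counts) and 0.062 (rank difference), and 825 regions stood in runs. These values describe a mostly different set, since 8717 of those 11523 regions had an E4 or WT peak in the whole lists. With that limit on D3 alone the count was 2806 (6.10%), with 599.5 bp, 29.3 kb, 23.0%, 5.25 points, 2 high and 2 low bins, a counts correlation of 0.30 and 5 regions in runs. At equal list length by −log10 q these were 2759 (6.05%), 602 bp, 29.4 kb, 22.8%, 5.22 points, 2 high and 2 low bins, 0.31 and 0 in runs. By fold they were 3088 (6.72%), 588 bp, 31.6 kb, 21.5%, 4.77 points, 2 high and 2 low bins, 0.27 (rank difference 0.092) and 16 in runs. With 50% coverage, 35.6% were private, with 566 bp, 43.4 kb, 17.8% within 10 kb and 1869 in runs. Centre to centre, the distance was 25.8 kb and 24.9% lay within 10 kb. A lower factor gave 5 high and 3 low bins, runs of 3 or more held 3040 regions, and without chromosomes 8, 10, 16 and 17 the autosomes spanned 7.57 points. Chromosome 17 was lowest in each setting that kept it except under the limit of 5 on every list, where chromosome 19 was, and the highest autosome changed as given above. Shorter or filtered lists hold fewer peaks by construction; otherwise the cause was not tested. The unknown depth limits what weak peaks show.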
